A study of Mus musculus with 47 samples.

Results

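Integrins, laminins and the proteins that tie them to each other and to the cytoskeleton were followed through one cycle of mammary gland development in 39 genes, chosen by symbol, with earlier results of these data known, and all found among the 17078 genes of the deposited table. They comprised 2 collagen-binding integrin subunits (*Itga1*, *Itga2*), 4 laminin-binding subunits (*Itga3*, *Itga6*, *Itga7*, *Itgb4*), 8 subunits that bind fibronectin, tenascin or latent TGF-β (*Itga5*, *Itga8*, *Itga9*, *Itgav*, *Itgb3*, *Itgb5*, *Itgb6*, *Itgb8*), the shared β subunit *Itgb1*, 9 laminin chains, 5 basement membrane linkers (*Nid1*, *Nid2*, *Hspg2*, *Agrn*, *Dag1*), 7 members of the ILK-PINCH-parvin complex and the kindlins, and 3 hemidesmosome linkers or tetraspanins (*Plec*, *Dst*, *Cd151*).

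The study sequenced amplified RNA of luminal and basal epithelial cells sorted from FVB/N mice, mated from 8 weeks of age, with 32 glands of 4 mice pooled in each sort. Lineage-negative cells were gated as Cd24+ Cd29lo (luminal population) or Cd24+ Cd29hi (basal population), after removal of cells carrying Cd11b, Cd45, Ly-6G/C, Ter-119, Cd31 or Cd140a. The 8 time points were nulliparous females at 10 weeks of age (W10), pregnancy days 3.5 and 14.5 (P3.5, P14.5), lactation days 3 and 10 (L3, L10), 2 days after pups were removed on lactation day 10 (Id2), 4 weeks after weaning (Iw4) and age-matched nulliparous females of 4 months (M4), with no transgene or drug in any group. Values existed for 46 libraries, 24 luminal and 22 basal, which is 3 in every condition apart from P14.5 basal and L10 basal with 2 each. The authors removed a P14.5 basal sample as an outlier, since it clustered with the luminal samples. At L10 they assayed fewer samples because of low RNA yield. The libraries held between 4398806 and 20023054 reads on genes, so that 3 reads, used as the detection floor, corresponded to 0.170 to 1.05 CPM.

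W10, Iw4 and M4 were pooled as the non-pregnant state (9 libraries in each cell type) and L3 and L10 as lactation (5 basal, 6 luminal). A gene was called when limma on log2(CPM + 1) gave a difference of at least 1 on the log2 scale with an FDR under 0.01 over all 17078 genes, and log2 differences below are on that scale and carry their standard error (SE). RNA was amplified in 6 batches that ran along the time course. Batch 4 held W10 and Id2, batch 5 L3 and L10, batch 6 P3.5 and P14.5, and batches 1 to 3 M4 and Iw4. Lactation and its batch therefore cannot be told apart, nor can pregnancy and its batch. In sorted bulk RNA, fewer cells of a type and less RNA per cell also cannot be told apart.

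Integrins are αβ heterodimers that span the plasma membrane, binding extracellular matrix outside and actin or keratin filaments inside. Laminins are trimers of an α, a β and a γ chain that form the sheet to which epithelial cells attach, and nidogens and perlecan join this sheet to the network of type IV collagen. In the mammary gland the contractile basal (myoepithelial) cells lie on the basement membrane and are its main epithelial contact, while luminal cells reach it mostly in the alveoli.

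Before the genes were compared, the identity of the libraries was checked with markers of each cell type, and the 3 Id2 libraries labelled basal (replicates 2, 4 and 6) stood apart. *Krt5*, a keratin of basal cells, was at 4.68, 156 and 6.95 CPM in them, against 1293 to 2067 CPM in the 9 non-pregnant basal libraries. *Trp63*, the transcription factor that defines basal epithelium, was at 9.99, 26.6 and 3.39 CPM against 470.0 to 999 CPM, and *Krt14* at 2.65, 49.0 and 3.07 CPM against 458 to 1328 CPM. All 3 markers were thus below every non-pregnant basal library in all 3 Id2 libraries. Set beside the Id2 luminal libraries, *Krt5*, *Acta2*, *Mylk*, *Myh11* and *Snai2* were higher in all 3, with *Acta2* at 537, 8399 and 515 CPM against 49.2, 116 and 54.5 CPM. *Krt5* stood against 3.56, 4.12 and 1.63 CPM there, so that its margin was small in replicate 2. The other listed basal markers, *Krt14*, *Krt17*, *Trp63*, *Oxtr* and *Cnn1*, overlapped with the Id2 luminal libraries. In replicates 2 and 6, *Krt14* and *Oxtr* were below all 3 Id2 luminal libraries, which held 5.73, 8.23 and 9.15 CPM of *Krt14*.

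Genes of several other cell types were higher in the same libraries. The sum of 10 endothelial markers, led by *Ptprb*, was 15015, 735 and 517 CPM (non-pregnant basal 36.3 to 254). The sum of 9 fibroblast markers, led by *Col1a1*, was 3488, 12021 and 77128 CPM (non-pregnant 243 to 2124), and that of 8 pericyte markers, led by *Rgs5*, 3327, 11434 and 2676 CPM (non-pregnant 162 to 414). No gene of the endothelial, fibroblast and pericyte lists was at 0 reads in any of the 3 libraries, although the sort removed Cd31+ and Cd140a+ cells. The sum of the 3 adipocyte markers in the table (of 5 listed), led by *Fabp4*, which endothelial cells also express, was 3719.7, 612 and 242 CPM (non-pregnant 12.6 to 105), with *Plin1* at 0 reads in replicate 2, and that of 9 leukocyte markers 71.8, 79.2 and 122 CPM (non-pregnant 11.6 to 24.9). The Schwann cell sum was lower, at 32.8 to 52.3 CPM (non-pregnant 186 to 306), and the luminal sum was 740.4, 699 and 218 CPM (non-pregnant 619.9 to 2141), below that range in replicate 6 alone. The endothelial sum was highest in replicate 2, the fibroblast sum in replicate 6 and the pericyte sum in replicate 4, so the 3 libraries differed from each other as well. The 10 basal or myoepithelial markers summed to 1369, 17966 and 1109.9 CPM, below every other basal library in replicates 2 and 6. In replicate 4 this sum lay within the non-pregnant range (12846 to 30312 CPM), with *Acta2* at 8399, *Myh11* at 5346 and *Mylk* at 3509 CPM as its largest parts. *Krt5*, *Krt14* and *Trp63* of replicate 4 were below every non-pregnant basal library. The part of pericyte and fibroblast RNA in *Acta2*, *Myh11*, *Mylk* and *Snai2* was not tested. The 3 libraries are called the Id2 libraries labelled basal below. Counts taken over the time points are also given without Id2, an alternative chosen after seeing these libraries.

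**Figure D1:**
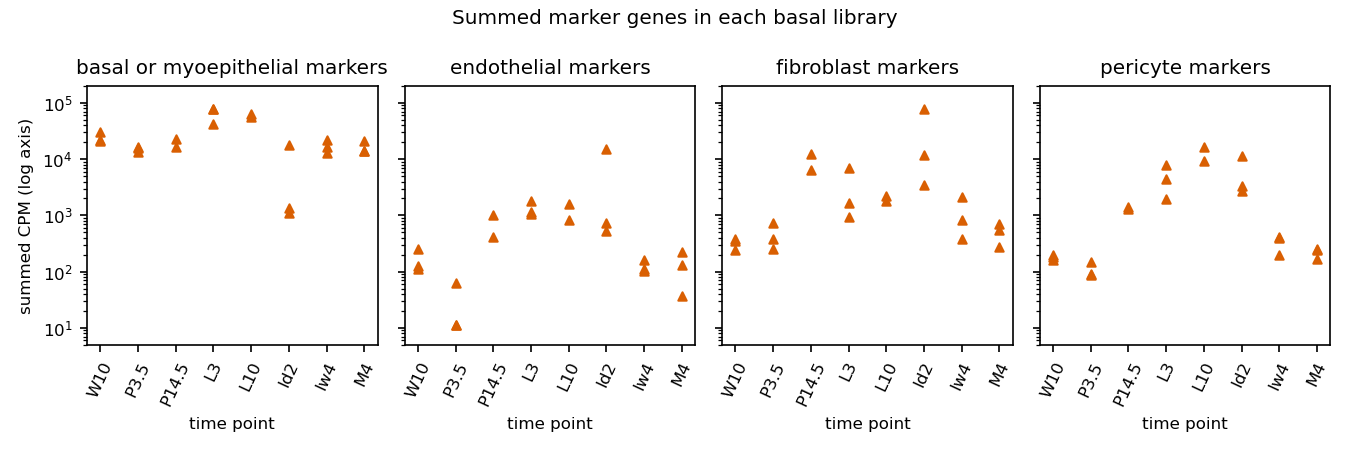
Summed CPM of 4 marker lists (log axis) in each of the 22 basal libraries, by time point; each triangle is 1 library. Replicates 2 and 6 of Id2 have the lowest basal sums (1369, 17966 and 1109.9 CPM over replicates 2, 4 and 6), while pericyte sums rise above 1000 CPM in P14.5, L3, L10 and Id2.

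Levels per kilobase of exon, averaged over the time point means, ordered the genes within each population. In basal cells the highest were *Dag1*, the dystroglycan that binds laminin to the dystrophin complex, at 188 CPM per kb, *Itgb1* at 153, *Lamc1* at 148, *Itga6* at 102, *Hspg2* at 99.4, *Nid1* at 96.3 and *Cd151* at 96.1. In luminal cells *Dag1* (74.9), *Itgb1* (69.9), *Itga6* (57.8) and *Cd151* (56.1) led as well, followed by *Fermt2* (29.1) and *Lamc1* (25.1). Without Id2 the basal level of *Nid1* was 50.2 CPM per kb, 11th in place of 6th, and that of *Hspg2* 83.9, 6th in place of 5th, while *Dag1*, *Itgb1*, *Lamc1* and *Itga6* kept the first 4 places. *Ilk*, the pseudokinase at the centre of the ILK-PINCH-parvin complex, was lowest in both, at 0.268 CPM per kb in basal and 0.0261 in luminal cells. It was under 3 reads in 22 of 24 luminal and 5 of 22 basal libraries, and 76.75% of its exon bases are shared with *Taf10* on the other strand, so its values are uncertain.

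**Figure D2:**
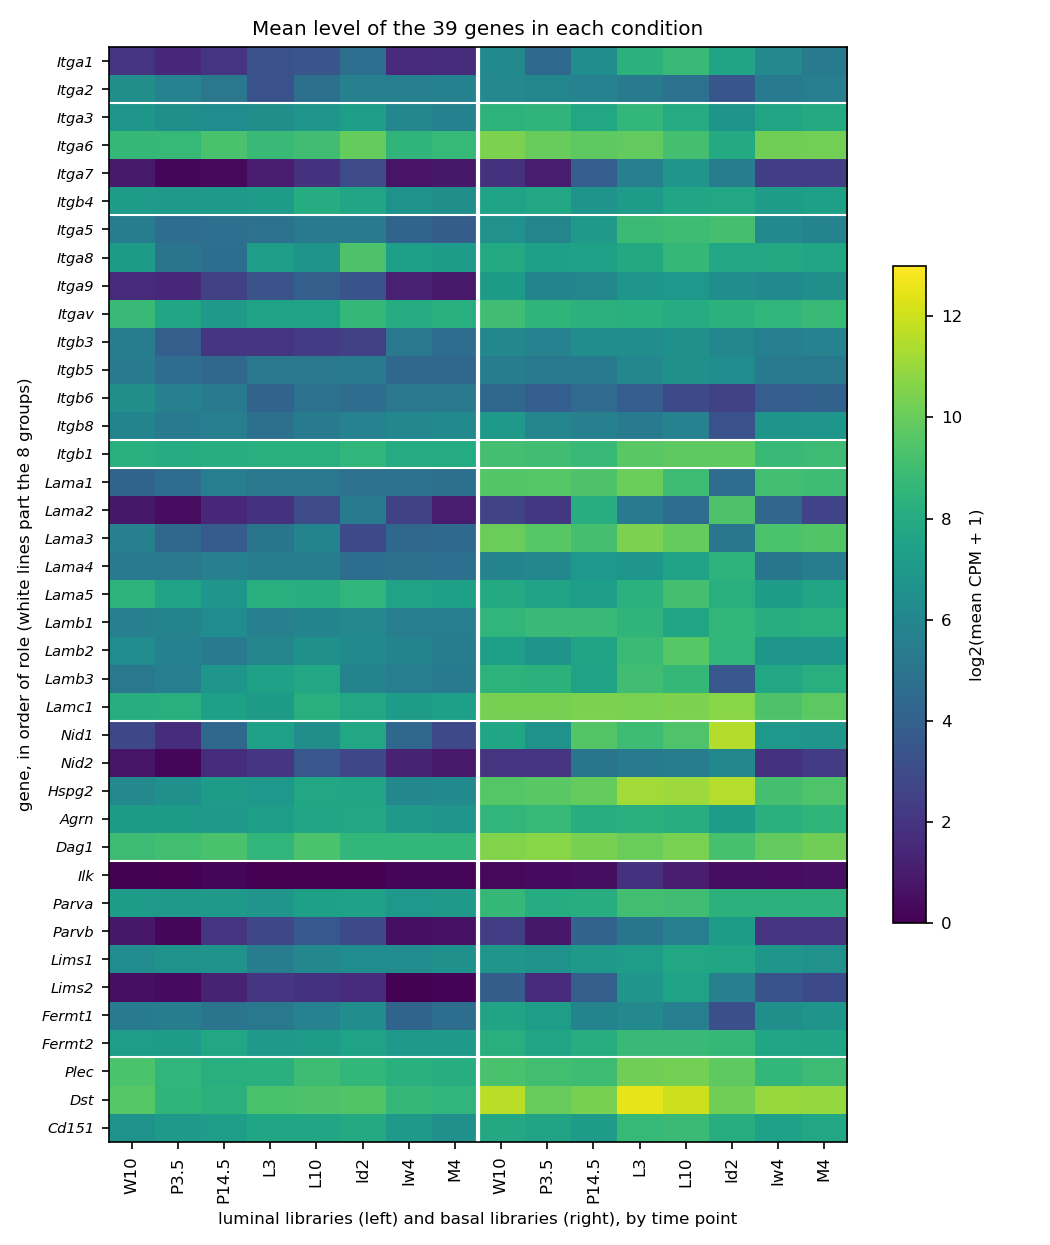
Mean level of the 39 genes, as log2(mean CPM + 1) by colour, with luminal conditions in the left 8 columns and basal conditions in the right 8; white lines part the groups by role. *Hspg2*, *Dst* and the laminin chains other than *Lama5* are brighter in most basal columns. The Id2 basal column is darker for *Lama1*, *Lama3*, *Lamb3*, *Fermt1* and *Itgb8* than the other basal columns.

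The first comparison asked which of these genes separated the basal from the luminal population. *Itgb1* encodes CD29, the antigen on which the populations were sorted, and is given as a description only. Its level was 2.12-fold higher in basal cells over the mean of log2(CPM + 1) at the 8 time points, and the W10 basal libraries held 506, 519.9 and 622 CPM against 245, 328 and 309 CPM in luminal libraries. Of the other 38 genes, 23 were higher and 1 lower in basal cells over the mean of the 8 time points, where 13.6% of all genes were called higher and 7.35% lower. The median log2 difference was 1.39 over these genes and 0.02 over all genes. When the Id2 time point was left out of the mean, 26 were higher and 1 lower (13.8% and 7.35% of all genes). The 3 further genes were *Itga6* at 1.13 ± 0.17, *Agrn* at 1.23 ± 0.10 and *Fermt1* at 1.46 ± 0.20, and the log2 differences of the 38 genes moved by between -0.32 (*Lama4*) and 0.62 (*Lama1*). Of the 38 genes, 5 were higher in every basal library than in any luminal library (*Itga9*, *Lamb1*, *Lamc1*, *Hspg2*, *Parva*), where 1.77% of all genes had populations that did not overlap. Without Id2 the count was 9, with *Itga3*, *Lama1*, *Lama3* and *Agrn* added (4.19% of all genes).

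Of the 9 laminin chains, 8 were higher in basal cells and none lower, with a median log2 difference of 2.51, the highest of any role. *Lama3*, the α chain of the laminin that anchors hemidesmosomes (ENSMUSG00000024421), ranged over 530.1, 682 and 1284 CPM (lowest, median and highest) in non-pregnant basal cells and 13.4, 22.7 and 68.3 CPM in non-pregnant luminal cells, with a log2 difference over time of 4.61 ± 0.20 (adjusted p = 2.87e-21). *Lama1* (ENSMUSG00000032796), the α chain of early basement membranes, ranged over 363, 568 and 867 CPM and 12.7, 25.2 and 36.5 CPM, with a difference of 3.84 ± 0.15 (adjusted p = 8.91e-23). For both genes the non-pregnant populations did not overlap. *Lamc1* (ENSMUSG00000026478), the γ chain shared by most laminins, differed by 2.55 ± 0.11 (adjusted p = 6.5e-21), at 518, 873 and 1429.8 CPM in non-pregnant basal and 129.9, 158 and 405 CPM in luminal libraries. Its usual partner *Lamb1* differed by 2.51 ± 0.12, *Lamb2* by 1.92 ± 0.13, *Lamb3* by 1.41 ± 0.16 and *Lama4* by 1.35 ± 0.17. *Lama2* differed by 2.79 ± 0.37 over the mean, but at single time points was called at P14.5 (6.61 ± 1.12) and Id2 (4.02 ± 1.00) alone, where the fibroblast sums of basal libraries were 6371 to 12455 and 3488 to 77128 CPM. Its Id2 value ran from 2.90 to 5.16 when single libraries were left out, with an adjusted p from limma reaching 0.0343. The part of fibroblast RNA in the *Lama2* calls was not tested. *Lama5*, the laminin α chain most widespread in adult epithelia, was the exception at 0.04 ± 0.17 (adjusted p = 0.839), with 131, 200.3 and 274 CPM in non-pregnant basal and 124, 197 and 424 CPM in luminal libraries.

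The linkers followed the laminins, with 4 of 5 higher in basal cells. *Hspg2* (ENSMUSG00000028763), which encodes perlecan, held 503, 652 and 868 CPM in non-pregnant basal and 47.7, 67.4 and 107 CPM in luminal libraries, a log2 difference over time of 3.44 ± 0.12 (adjusted p = 5.18e-24). *Nid1* (ENSMUSG00000005397), nidogen, was at 64.4, 127 and 241 CPM and 1.99, 7.05 and 27.5 CPM, with a difference of 3.92 ± 0.25 (adjusted p = 1.54e-16). *Dag1* differed by 1.27 ± 0.09. *Nid2* differed by 2.24 ± 0.23 over the mean and was called at the single time points P14.5, L3, L10 and Id2 alone, where the pericyte and endothelial sums of basal libraries did not overlap those of the non-pregnant state. Its L10 call was not kept in every omission of a single library, with values from 1.45 to 3.12. At L3 and L10 the basal marker sums did not overlap those of the non-pregnant state either. The part of pericyte and endothelial RNA in the *Nid2* calls was not tested. *Agrn*, which encodes the heparan sulfate proteoglycan agrin, stayed just below the fold threshold at 0.98 ± 0.10 (adjusted p = 3.29e-11).

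Among the integrin subunits, *Itga9* (ENSMUSG00000039115), whose product binds tenascin C, had the largest difference, 4.30 ± 0.18 (adjusted p = 7.12e-22), with 58.9, 81.4 and 153 CPM in non-pregnant basal and 0.412, 1.40 and 2.31 CPM in non-pregnant luminal libraries. *Itga1* (ENSMUSG00000042284), the α subunit of a collagen receptor, differed by 4.16 ± 0.17 (adjusted p = 1.98e-22), while the other collagen receptor subunit, *Itga2*, had a log2 difference of -0.01 ± 0.16 (adjusted p = 0.973). Fibronectin receptor subunit *Itga5* differed by 2.62 ± 0.20 and *Itgb3*, a partner of *Itgav*, by 2.63 ± 0.19. The laminin receptor subunits *Itga7* and *Itga3* differed by 2.53 ± 0.20 and 1.37 ± 0.18, and at single time points *Itga7* was called at P14.5, L3, L10 and Id2 alone, where basal pericyte sums were above 1000 CPM. Its Id2 value ran from 1.06 to 2.57 when single libraries were left out, with an adjusted p from limma reaching 0.107. At L3 and L10 the basal marker sums were higher as well, at 41379 to 79499.9 CPM against 12846 to 30312 CPM in the non-pregnant state. The part of pericyte RNA in the *Itga7* calls was not tested. *Itga6* and *Itgb4*, which pair in the hemidesmosome, were at 0.67 ± 0.16 and 0.10 ± 0.20 and were not called. *Itgb6* (ENSMUSG00000026971), an epithelial subunit that activates latent TGF-β, was the single gene lower in basal cells, at -1.43 ± 0.17 (adjusted p = 1.65e-09), with 9.48, 16.8 and 22.9 CPM in non-pregnant basal and 17.8, 47.8 and 108 CPM in luminal libraries. *Itga8* passed at 1.04 ± 0.20, close to the fold threshold, and was not called by edgeR on the reads (0.96, adjusted p = 0.000127) or by DESeq2 (0.99, adjusted p = 4.02e-06).

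Of the proteins on the cytoplasmic side, 3 of 7 in the ILK-PINCH-parvin and kindlin group and 1 of 3 hemidesmosome linkers or tetraspanins were higher in basal cells. *Lims2* (ENSMUSG00000024395), a PINCH protein, was at 3.21, 7.22 and 24.4 CPM in non-pregnant basal and 0, 0.117 and 1.05 CPM in luminal libraries, and differed by 3.42 ± 0.22 (adjusted p = 2.07e-16). *Parva* and *Parvb*, which link ILK to actin, differed by 1.41 ± 0.08 and 1.95 ± 0.30. At single time points *Parvb* was called at Id2 alone (2.72 ± 0.82), and there not without basal replicate 2, at 1.20 (adjusted p = 0.226), while *Parva* was called at 7. *Dst*, whose epithelial form ties hemidesmosomes to keratin, differed by 2.08 ± 0.12 (adjusted p = 3.63e-17), with 1469.9, 2254 and 3957 CPM against 328, 426 and 927 CPM. The kindlins, which activate integrins, were at 0.86 ± 0.18 (*Fermt1*) and 0.95 ± 0.09 (*Fermt2*), and *Plec*, which encodes plectin, at 0.89 ± 0.11, all under the fold threshold.

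The same comparison was made at each time point. At W10, 17 genes were higher and 1 lower in basal cells, where 9.10% of all genes were higher and 5.12% lower. At P3.5 the counts were 17 and 0 (7.27% and 4.64% of all genes), at P14.5 21 and 0 (9.54% and 3.39%) and at L3 24 and 0 (15.9% and 9.87%). At L10 the counts were 21 and 1 (13.8% and 10.9%), at Iw4 17 and 0 (7.79% and 3.75%) and at M4 20 and 0 (8.20% and 4.24%). The P14.5 counts do not include the basal sample that the authors removed for clustering with luminal samples. The P14.5 count was 13 without basal replicate 3, which leaves 1 basal library there. At Id2, 18 were higher and 7 lower (12.2% and 9.39%). *Itga1*, *Itga9*, *Lamb1*, *Lamc1* and *Hspg2* were higher in basal cells at all 8 time points (2.39% of all genes), and 12 genes at 7 or 8 (4.15%). At all 7 time points other than Id2, 10 genes were higher (3.30%). Of the genes called over the mean, *Lama4* was called at L3, L10 and Id2 alone, *Itga3* at P3.5, L3 and M4 alone, and *Itga8* was higher at P3.5 and P14.5 and lower at Id2 (-2.14 ± 0.55). When single libraries were left out, the adjusted p of *Itga8* from limma reached 0.021 at P3.5 and 0.0312 at Id2, where its value ran from -3.01 to -1.69. That of *Itga3* at P3.5 reached 0.0211 and that of *Lama4* at L3 0.104. Within single sorts, which pair a basal with a luminal library from the same mice, between 32 and 38 of the 38 genes were higher in the basal library in the 19 sorts outside Id2 (median 35), and 25 to 27 in the 3 Id2 sorts. Of all genes, 46.0% to 55.5% were higher in the basal library in the 19 sorts, and 48.7% to 52.1% in those of Id2. *Itgb4*, *Itgb5* and *Lama5* were called at no time point.

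**Figure D3:**
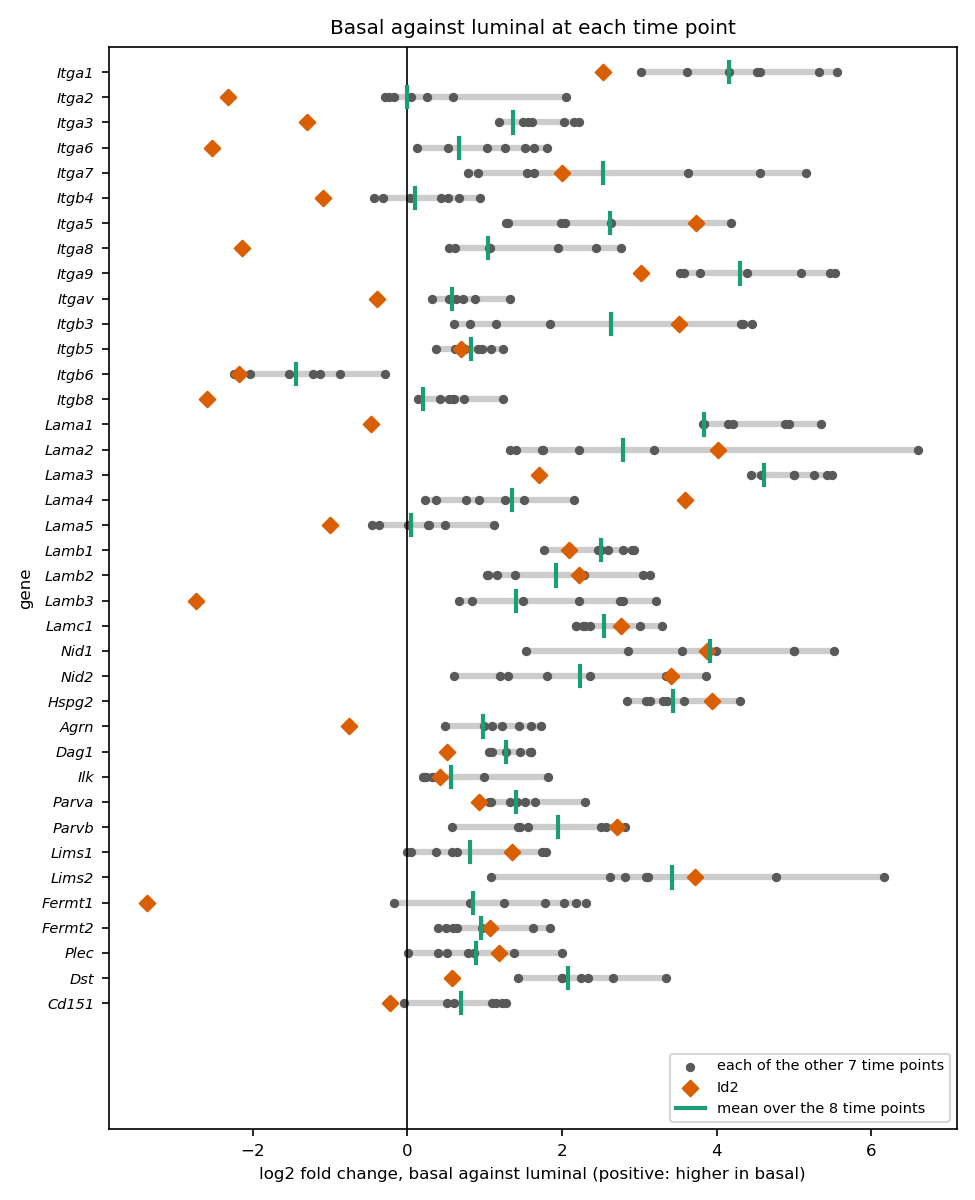
Log2 difference between basal and luminal cells for the 38 genes other than *Itgb1* (positive is higher in basal), with 1 grey point for each of 7 time points, an orange diamond for Id2 and a green bar for the mean of all 8. Most grey points lie to the right of 0 outside *Itgb6*, and the Id2 diamonds of *Itga2*, *Itga6*, *Itgb8*, *Lamb3* and *Fermt1* lie to the left of every grey point of the same gene.

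The next comparison asked how the genes changed from the non-pregnant state to lactation. In basal cells, 15 of 39 were higher and 2 lower in lactation, where 10.4% of all genes were higher and 7.78% lower, and the median log2 difference was 0.74 against -0.04 over all genes. The count of called genes was 11 when W10 alone served as the baseline, and 14 with L3 alone as lactation, an alternative chosen after seeing that pericyte markers were lower at L3 than at L10. Both alternatives rest on fewer libraries, and the shares of all genes called in them are not given here. All 5 lactation libraries were above all 9 non-pregnant ones for 14 of the 39 genes and below them for 1, where 14% of all genes did not overlap in either direction. In the same libraries the pericyte marker sum was 1932, 4372 and 7839 CPM at L3 and 9384 and 16534 CPM at L10, against 162 to 414 CPM in non-pregnant basal cells, and the endothelial sum was 823 to 1803 CPM against 36.3 to 254 CPM. The basal marker sum was 41379 to 79499.9 CPM against 12846 to 30312 CPM. The fibroblast sum was 936 to 6861 CPM against 243 to 2124 CPM. The adipocyte sum was 479.6 to 931 CPM against 12.6 to 105 CPM, and the leukocyte sum 24.4 to 139 CPM against 11.6 to 24.9 CPM, with overlap. No pericyte, endothelial or adipocyte marker in the table was at 0 reads in these libraries. The part of pericyte, endothelial, fibroblast, adipocyte and leukocyte RNA in the lactation values was not tested.

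Of the integrin subunits, 1 of 2 collagen-binding, 1 of 4 laminin-binding and 1 of 8 fibronectin, tenascin or TGF-β binding subunits rose in basal cells, and 1 of the last group fell. *Itga7* (ENSMUSG00000025348), a laminin receptor subunit best known from muscle, was at 2.26, 2.74 and 6.54 CPM in non-pregnant basal libraries, at 24.9, 61.9 and 62.5 CPM at L3 and at 93.9 and 125 CPM at L10, a log2 difference of 4.00 ± 0.37 (adjusted p = 9.31e-11). Every lactation library was above every non-pregnant library. *Itga1* went from 35.4, 55.6 and 87.0 CPM to 317, 335 and 312 CPM at L3 and 373 and 506 CPM at L10 (log2 difference 2.71 ± 0.32). *Itga5* (ENSMUSG00000000555), the fibronectin receptor subunit, went from 42.2, 62.9 and 129 CPM to 638, 549 and 228 CPM at L3 and 567 and 435 CPM at L10 (2.70 ± 0.38). The groups did not overlap for either gene. *Itgb1* was not called, at 779, 859.5 and 777 CPM at L3 and 828 and 946 CPM at L10 against 348, 505 and 622 CPM (0.81 ± 0.15). The subunit that fell was *Itgb8* (ENSMUSG00000025321), a partner of *Itgav* that activates latent TGF-β, from 86.0, 104 and 151 CPM to 41.1, 40.5, 34.3, 60.0 and 45.0 CPM over the 5 lactation libraries (-1.31 ± 0.19, adjusted p = 8.35e-07), again with no overlap. *Itga6*, *Itgav* and *Itga2* were not called, at -0.81 ± 0.30, -0.66 ± 0.23 and -0.73 ± 0.30.

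Of the 9 laminin chains, 3 rose and none fell. *Lamb2*, a β chain of vascular and muscle basement membranes, went from 87.5, 126 and 186 CPM to 321, 563, 526, 674 and 904 CPM (log2 difference 2.20 ± 0.24, adjusted p = 2.64e-09), with no overlap. *Lama4*, the α chain typical of endothelial basement membrane, differed by 1.73 ± 0.32 and *Lama5* by 1.19 ± 0.32, and lactation and non-pregnant libraries overlapped for both. The *Lama5* call was lost without L10 replicate 5, at 1.12 (adjusted p = 0.0193), and without L10 replicate 6, at 1.26 (adjusted p = 0.0111). The chains highest in basal cells, *Lama1*, *Lama3* and *Lamc1*, were not called in lactation, at 0.31 ± 0.28, 0.54 ± 0.38 and 0.62 ± 0.22.

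Of the 5 linkers, *Nid2*, *Nid1* and *Hspg2* rose. *Nid2* (ENSMUSG00000021806) was at 1.47, 2.36 and 5.03 CPM in non-pregnant and 20.5, 30.5, 66.1, 25.0 and 60.9 CPM in the 5 lactation libraries (log2 difference 3.28 ± 0.43, adjusted p = 1.51e-07). *Nid1* was at 64.4, 127 and 241 CPM and 427, 348, 704, 623 and 725 CPM (2.07 ± 0.47), and *Hspg2* at 503, 652 and 868 CPM and 2587, 2693, 1822, 1993 and 2420.1 CPM (1.77 ± 0.23). None of these 3 overlapped between the groups. *Agrn* and *Dag1* were not called, at -0.24 ± 0.18 and -0.01 ± 0.17.

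Of the 7 genes of the ILK-PINCH-parvin and kindlin group, 3 rose and 1 fell. *Lims2* was at 3.21, 7.22 and 24.4 CPM in non-pregnant and 84.5, 111, 128, 194 and 179 CPM in the 5 lactation libraries (log2 difference 3.92 ± 0.41, adjusted p = 1.46e-09). *Parvb* (ENSMUSG00000022438) went from 1.75, 3.05 and 7.07 CPM to 37.5, 16.6, 44.1, 48.7 and 45.7 CPM (3.17 ± 0.57, adjusted p = 2.46e-05). Both were higher in every lactation library. All 3 genes of the hemidesmosome and tetraspanin group rose, with *Plec* at 1.31 ± 0.21, *Dst* at 1.12 ± 0.24 and *Cd151*, a tetraspanin that binds laminin receptors, at 1.07 ± 0.25. The *Cd151* call was lost without L3 replicate 4, at 0.99 (adjusted p = 0.0035), and without L10 replicate 6, at 0.99 (adjusted p = 0.0108). *Fermt1* (ENSMUSG00000027356), the kindlin of epithelia, was the gene of this group that fell, from 71.8, 108 and 235 CPM to 90.1, 57.6, 56.4, 60.2 and 32.1 CPM (-1.12 ± 0.35, adjusted p = 0.00927), with overlap between the groups. Its adjusted p from limma ran from 0.00792 to 0.0912 when single libraries were left out. *Ilk* was called at 1.02 ± 0.16, on values of 0.103, 0.327 and 0.610 CPM in non-pregnant and 1.12, 3.05, 4.18, 1.22 and 0.855 CPM in the 5 lactation libraries, and not by edgeR (2.30, adjusted p = 0.0104) or DESeq2 (2.43, adjusted p = 0.0117). Its log2 difference ran from 0.88 to 1.20 when single libraries were left out. The 22 genes not called in lactating basal cells ran from -0.90 (*Itgb6*) to 1.76 (*Lama2*) on the log2 scale.

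In luminal cells, 8 of 39 genes were higher and 3 lower in lactation (7.45% of all genes were higher and 5.66% lower), with a median log2 difference of 0.32 against -0.01 over all genes. *Itgb3* (ENSMUSG00000020689) fell from 7.79, 30.3 and 68.8 CPM to 0.541, 5.42 and 2.81 CPM at L3 and 4.26, 6.16 and 1.21 CPM at L10 (8.02-fold lower in CPM + 1, adjusted p = 9.76e-09 from limma), and *Itga2* (ENSMUSG00000015533) from 36.9, 56.1 and 102 CPM to 4.69, 17.7 and 3.86 CPM and 36.2, 23.9 and 21.4 CPM (-2.01 ± 0.28, adjusted p = 5.89e-07). For both genes all 6 lactation libraries were below all 9 non-pregnant ones. *Lamb3* (ENSMUSG00000026639) rose from 31.4, 39.3 and 58.2 CPM to 228, 184 and 112 CPM and 191, 243 and 234 CPM (2.23 ± 0.28, adjusted p = 7.36e-08), and *Itga9* from 0.412, 1.40 and 2.31 CPM to 7.40, 13.4 and 6.31 CPM and 2.39, 29.4 and 10.6 CPM (2.14 ± 0.32), both without overlap. In all, 3 of the 39 genes were higher and 2 lower in every lactation library than in any non-pregnant one (7.41% of all genes in either direction). *Nid1* (3.48 ± 0.44), *Itga1* (1.38 ± 0.29) and *Hspg2* (1.27 ± 0.21) rose as in basal cells, and the luminal lactation libraries also held an endothelial marker sum of 106 to 667 CPM against 7.01 to 56.4 CPM and a basal marker sum of 397 to 2662 CPM against 112 to 277 CPM in non-pregnant luminal cells. The adipocyte sum was 15.3 to 81.2 CPM against 2.59 to 18.0 CPM and the leukocyte sum 24.2 to 300.1 CPM against 9.83 to 24.6 CPM, both with overlap. *Fabp4* alone held 14.9 to 80.5 CPM of the adipocyte sum in these lactation libraries. The part of these cells in the luminal values was not tested. *Itgb6*, *Nid2*, *Parvb* and *Lims2* were called as well, at -1.10 ± 0.30, 1.47 ± 0.41, 1.99 ± 0.53 and 1.46 ± 0.39, each with overlap and with adjusted p values reaching 0.0195, 0.0348, 0.0262 and 0.0283 when single libraries were left out. The other 28 genes ran from -0.94 (*Itgb8*) to 0.89 (*Cd151*).

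The change from non-pregnant to lactation differed between the cell types for 11 genes, 9 with a positive value (basal change minus luminal change) and 2 with a negative one, where 5.96% and 5.45% of all genes were called. The largest differences of the log2 changes were 3.55 ± 0.49 for *Itgb3* and 3.49 ± 0.51 for *Itga7*. For *Itgb3* the basal libraries held 36.4, 56.5 and 87.1 CPM in the non-pregnant state and 137, 75.0, 37.7, 67.9 and 112 CPM in lactation, and the basal change of 0.54 ± 0.36 was not called, while the luminal libraries fell by 8.02-fold in CPM + 1. *Lims1* differed by 1.35 ± 0.17, *Lamb2* by 1.90 ± 0.33 and *Plec* by 1.29 ± 0.28. *Fermt2* differed by 1.01 ± 0.22 (adjusted p = 0.000919), and fell under the fold threshold with the sort as a block, at 1.00 (adjusted p = 0.0003), and its value ran from 0.91 to 1.14 when single libraries were left out. *Itga9* at -1.81 ± 0.46 and *Lamb3* at -1.57 ± 0.41 had the larger change in luminal cells, with adjusted p values from limma reaching 0.0166 and 0.0135 when single libraries were left out.

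Forced weaning was compared next. In the Id2 libraries labelled basal, 11 of 39 genes were higher and 12 lower than in non-pregnant basal cells (11.3% of all genes were higher and 9.47% lower), with a median log2 difference of 0.02 against -0.05 over all genes. The counts were 11 and 12 without replicate 2, 9 and 12 without replicate 4, and 16 and 7 without replicate 6. Against W10 alone, which shared the amplification batch with Id2, 8 were higher and 12 lower. The shares of all genes called in these alternatives are not given here, so the counts describe the 39 genes only. The libraries did not overlap for 11 genes that were higher and 9 that were lower (22.3% of all genes in either direction). These differences stand beside the low basal markers and high endothelial, fibroblast and pericyte markers described above, and the part of those cells was not tested.

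Of the 12 genes that were lower, 3 were laminin chains and 5 were integrin subunits. *Lamb3* was at 203, 282 and 432 CPM in non-pregnant basal cells and at 5.93, 24.3 and 1.62 CPM in replicates 2, 4 and 6 (log2 difference -5.16 ± 0.35, adjusted p = 4.51e-14), *Lama3* at 530.1, 682 and 1284 and 12.2, 77.3 and 12.3 CPM (-5.01 ± 0.45) and *Lama1* at 363, 568 and 867 and 6.09, 35.8 and 29.4 CPM (-4.83 ± 0.33). *Fermt1* was at 71.8, 108 and 235 and 4.22, 17.7 and 2.26 CPM (-4.13 ± 0.41, adjusted p = 3.51e-10), and *Itgb8* at 86.0, 104 and 151 and 5.78, 13.2 and 6.95 CPM (-3.63 ± 0.22). *Itga6*, which encodes the hemidesmosome and stem cell antigen CD49f, was at 943, 1214 and 1570.0 and 461, 239.7 and 39.4 CPM (-2.91 ± 0.35, adjusted p = 2.61e-08). Together with *Agrn* (-1.40 ± 0.22), these 7 genes were lower in each of the 3 Id2 libraries labelled basal than in all 19 other basal libraries, as were 3.53% of all genes. The *Agrn* call was lost without replicate 6, at -0.86 (adjusted p = 0.00057). *Itga2* (-2.36 ± 0.35), *Itga3* (-2.01 ± 0.41) and *Itgb6* (-1.57 ± 0.37) were lower as well, as was *Dag1* at -1.06 ± 0.20, whose call was lost without replicate 2, at -0.93 (adjusted p = 0.00222), replicate 6, at -0.88 (adjusted p = 0.00297), or W10 replicate 3, where it fell just under the fold threshold. The calls of *Itga3* and *Itgb6* were lost without replicate 6, at -0.83 (adjusted p = 0.0294) and -1.45 (adjusted p = 0.0101). Against W10 alone, *Lama1*, *Lama3*, *Lamb3*, *Fermt1* and *Itgb8* had log2 differences of -5.18, -5.48, -5.45, -4.78 and -3.76.

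**Figure D4:**
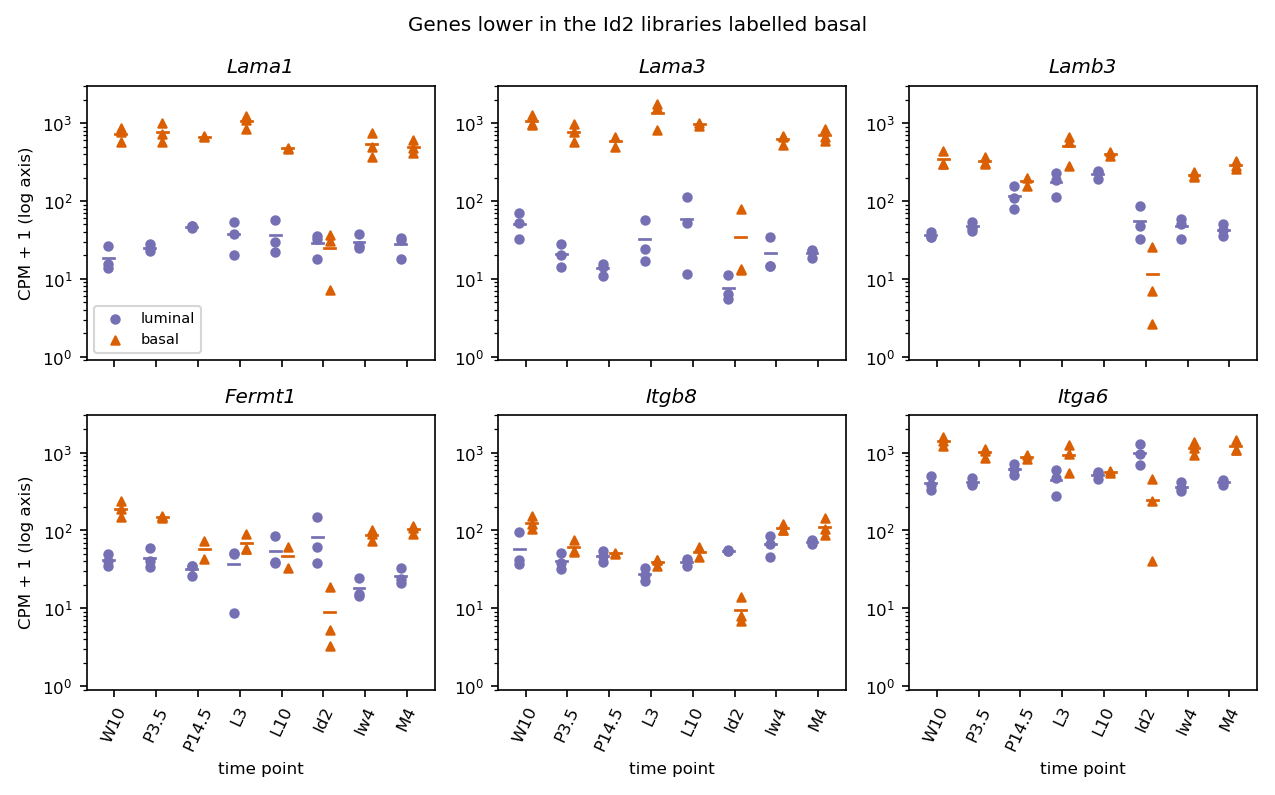
CPM + 1 (log axis) of *Lama1*, *Lama3*, *Lamb3*, *Fermt1*, *Itgb8* and *Itga6* in every library by time point, with circles for luminal and triangles for basal libraries and bars at the means. The 3 Id2 triangles lie below all other basal triangles in each panel, and the Id2 circles of *Itga6* and *Fermt1* lie above the Id2 triangles.

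Of the 11 genes that were higher in the Id2 libraries labelled basal, 3 were laminin chains, 3 were linkers, 3 were integrin subunits and 2 belonged to the ILK-PINCH-parvin group. *Lama2* (ENSMUSG00000019899), the laminin α chain of muscle and mesenchyme, was at 0.814, 4.99 and 38.7 CPM in non-pregnant cells and 104, 242 and 1655 CPM in replicates 2, 4 and 6 (log2 difference 5.59 ± 0.82, adjusted p = 1.08e-06). *Nid1* was at 64.4, 127 and 241 and 2043, 1686 and 4992 CPM (4.27 ± 0.55, adjusted p = 1.07e-07), and was the only one of the 39 genes above all 19 other basal libraries in all 3, as were 2.34% of all genes. *Nid2* (4.06 ± 0.51), *Lama4* (2.80 ± 0.38), *Hspg2* (2.11 ± 0.27), *Itga5* (2.97 ± 0.44) and *Itga7* (2.65 ± 0.44) were higher as well. *Lama2* was highest in replicate 6, in which the fibroblast sum was also highest. *Parvb* was at 400.4, 18.2 and 14.4 CPM, highest in replicate 2, against 1.75, 3.05 and 7.07 CPM, and was called at 3.51 ± 0.67 and not without replicate 2, at 2.00 (adjusted p = 0.0135). *Lims2* was at 71.5, 60.0 and 15.4 CPM against 3.21, 7.22 and 24.4 CPM, and at 2.16 ± 0.49 was not called without replicate 2, at 1.76 (adjusted p = 0.0158), or replicate 4, at 1.88 (adjusted p = 0.0101). *Itga1* was called at 1.41 ± 0.37 and not without replicate 4, at 0.73 (adjusted p = 0.146), and *Lamb2* at 1.42 ± 0.28. The 16 genes not called ran from -0.83 (*Itgb4*) to 0.90 (*Lims1*).

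Lactation and Id2 were compared with the same 9 non-pregnant basal libraries, so the calls of one are not independent of those of the other. *Dst* was higher in lactation (1.12 ± 0.24) and lower at Id2 (-1.12 ± 0.28). The *Dst* call at Id2 was lost without replicate 6, at -0.63 (adjusted p = 0.0943). Promoters of these genes were read from RefSeq, whose table (GRCm38.p6) matched 27 of the 39 genes. The 250 bases before the start are shown for *Fermt1* and *Itgb8*, which were lower in both comparisons, and for *Itga5* and *Parvb*, which were higher in both, with capitals marking the E-box CANNTG and the GC box GGGCGG or its reverse complement CCGCCC. *Fermt1* lies at chr2:132946037-132946286 (minus strand), *Itgb8* at chr12:119238277-119238526 (minus strand), *Itga5* at chr15:103366792-103367041 (minus strand) and *Parvb* at chr15:84231793-84232042 (plus strand).
Fermt1: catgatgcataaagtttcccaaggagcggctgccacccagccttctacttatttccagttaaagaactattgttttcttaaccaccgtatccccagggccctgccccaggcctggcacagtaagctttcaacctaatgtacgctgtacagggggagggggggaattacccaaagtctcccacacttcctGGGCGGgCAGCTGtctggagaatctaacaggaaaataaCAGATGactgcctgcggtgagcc
Itgb8: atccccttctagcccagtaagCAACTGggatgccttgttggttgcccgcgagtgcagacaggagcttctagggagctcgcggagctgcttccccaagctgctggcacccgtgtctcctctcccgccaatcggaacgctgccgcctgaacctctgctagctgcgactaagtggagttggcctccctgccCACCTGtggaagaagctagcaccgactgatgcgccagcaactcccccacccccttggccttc
Itga5: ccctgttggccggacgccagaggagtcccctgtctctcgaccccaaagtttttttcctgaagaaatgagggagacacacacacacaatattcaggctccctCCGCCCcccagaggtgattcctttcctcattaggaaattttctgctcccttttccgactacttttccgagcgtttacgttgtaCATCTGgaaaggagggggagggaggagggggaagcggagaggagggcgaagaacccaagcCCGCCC
Parvb: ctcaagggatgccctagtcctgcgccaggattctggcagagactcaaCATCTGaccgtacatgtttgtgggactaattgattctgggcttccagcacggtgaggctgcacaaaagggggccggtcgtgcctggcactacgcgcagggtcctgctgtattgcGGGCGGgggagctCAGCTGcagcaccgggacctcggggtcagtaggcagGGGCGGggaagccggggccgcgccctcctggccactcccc

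The *Fermt1* window held 2 E-boxes and 1 GC box, that of *Itgb8* 2 E-boxes and 0 GC boxes, that of *Itga5* 1 E-box and 2 GC boxes, and that of *Parvb* 2 of each. On either strand, the E-box was found in 66.2% of the 32851 promoter windows of the table and in 78.4% of the 37 windows of these genes, and the GC box in 32.7% and 54.1%. The matches describe the letters only. *Parva*, *Plec*, *Itgb4*, *Lama4*, *Nid2*, *Lama3*, *Lims2*, *Itgb3*, *Lama1*, *Itga6*, *Lamc1* and *Itga7* had no entry.

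In luminal cells at Id2, 11 genes were higher and 2 lower than in the non-pregnant state (8.23% of all genes were higher and 5.62% lower), with a median log2 difference of 0.50 against -0.03 over all genes. Without luminal replicate 4 the count of called genes was 8 in place of 13. *Nid1* was at 1.99, 7.05 and 27.5 CPM in non-pregnant and 116, 105 and 439 CPM in the 3 Id2 luminal libraries (log2 difference 4.35 ± 0.55, adjusted p = 1.78e-07). *Itga1* was at 1.40, 2.24 and 3.64 and 22.1, 29.4 and 25.2 CPM (3.00 ± 0.37), and *Itga9* at 0.412, 1.40 and 2.31 and 6.13, 9.92 and 12.4 CPM (2.15 ± 0.40). *Itga8* (ENSMUSG00000026768), whose product binds nephronectin, was at 42.4, 108 and 348 and 439, 659 and 864 CPM (2.39 ± 0.45, adjusted p = 0.000102). All 4 were higher in every Id2 luminal library, as were 12 of the 39 genes in all, while 2 were lower in each (19.9% of all genes in either direction). *Itgb3* fell to 3.56, 2.81 and 7.32 CPM (-2.55 ± 0.43), as in lactation, which was compared with the same non-pregnant libraries. *Lama3* fell from 13.4, 22.7 and 68.3 CPM to 5.34, 10.3 and 4.48 CPM (-1.90 ± 0.45), a call lost without replicate 2, at -1.80 (adjusted p = 0.0128), or 6, at -1.69 (adjusted p = 0.018). Besides *Itga6* and *Fermt1*, given below, the remaining calls were *Hspg2* at 1.50 ± 0.27, *Itga7* at 2.01 ± 0.44, *Cd151* at 1.22 ± 0.30, *Lama2* at 3.18 ± 0.82 and *Parvb* at 2.28 ± 0.67. Of these, *Itga7* was lost without replicate 4, at 1.59 (adjusted p = 0.0207), *Lama2* without replicate 6, at 2.04 (adjusted p = 0.103), and *Cd151* without replicate 2, at 1.22 (adjusted p = 0.0109), or 4, at 1.16 (adjusted p = 0.016), while the adjusted p of *Parvb* ran from 0.0088 to 0.0525 without single libraries. The 26 genes not called ran from -0.86 (*Itgb6*) to 1.69 (*Nid2*). The fibroblast marker sum was 294, 594 and 5529.9 CPM in these libraries, against 165 to 511 CPM in non-pregnant luminal cells, with overlap. The endothelial sum was 258, 408 and 117 CPM (non-pregnant 7.01 to 56.4), the leukocyte sum 65.6, 215 and 296 CPM (9.83 to 24.6), the adipocyte sum 72.3, 117 and 45.8 CPM (2.59 to 18.0) and the Schwann cell sum 428, 261 and 403 CPM (149 to 252), each without overlap. *Fabp4*, which endothelial cells also express, held 72.3, 117 and 45.6 CPM of the adipocyte sum, with *Plin1* at 0 reads in all 3 libraries. The part of these cells was not tested.

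The change from non-pregnant to Id2 differed between the populations as labelled for 14 genes, 2 with a positive value (basal change minus luminal change) and 12 with a negative one (4.28% and 6.13% of all genes). *Fermt1* had a difference of -5.54 ± 0.58, *Lamb3* of -5.46 ± 0.50, *Lama1* of -5.03 ± 0.47 and *Itga6* of -4.19 ± 0.50. *Itga6* and *Fermt1* were the genes called in opposite directions, since in luminal cells *Itga6* rose by 1.28 ± 0.35 and *Fermt1* by 1.41 ± 0.41. The luminal *Itga6* call was lost without replicate 2, at 1.28 (adjusted p = 0.0242), or 4, at 1.06 (adjusted p = 0.0606), and the adjusted p of luminal *Fermt1* from limma ran from 0.00357 to 0.171 without single libraries. *Lama4* at 3.14 ± 0.53 and *Itgb3* at 2.66 ± 0.60 were the 2 with a positive value. The *Lama4* change was 2.80 ± 0.38 in the libraries labelled basal and -0.34 ± 0.38 in luminal cells, and for *Itgb3* the changes were 0.11 ± 0.43 and -2.55 ± 0.43. Among the other negative values, those of *Itga2* (-2.09 ± 0.50), *Itga9* (-2.33 ± 0.57) and *Dst* (-1.61 ± 0.40) reached adjusted p values of 0.0256, 0.0142 and 0.036 from limma when single libraries were left out.

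The pregnancy time points were compared with the same non-pregnant libraries, none of which shared their amplification batch. In basal cells at P3.5, 0 genes were higher and 2 lower than in the non-pregnant state (2.90% and 1.38% of all genes), namely *Dst* at -1.21 ± 0.28 (adjusted p = 0.00283) and *Itga1* at -1.41 ± 0.37 (adjusted p = 0.00889), from 35.4, 55.6 and 87.0 CPM to 21.8, 24.7 and 16.2 CPM. The *Dst* call was lost without P3.5 replicate 2, at -1.18 (adjusted p = 0.0218), or 6, at -1.06 (adjusted p = 0.0505), and the adjusted p of *Itga1* from limma ran from 0.00731 to 0.0928 without single libraries. No gene was higher and 6 were lower in all P3.5 basal libraries than in any non-pregnant one (13.2% of all genes in either direction). The pericyte sum was 88.9, 86.7 and 149 CPM against 162 to 414 CPM and the leukocyte sum 2.77, 10.1 and 9.31 CPM against 11.6 to 24.9 CPM, without overlap, and the endothelial sum was 11.1, 11.3 and 63.4 CPM against 36.3 to 254 CPM. The part of these cells was not tested. At P14.5, 2 were higher and 1 lower (0.773% and 0.275%), and 7 were higher and 7 lower in both libraries than in any non-pregnant one (13.3% of all genes in either direction). *Lama2* was at 327 and 215 CPM in the 2 libraries against 0.814, 4.99 and 38.7 CPM (5.20 ± 0.96, adjusted p = 0.00131), and *Nid2* at 31.2 and 32.8 CPM against 1.47, 2.36 and 5.03 CPM (3.08 ± 0.60). Without replicate 3 they were at 4.90 (adjusted p = 0.0527) and 3.12 (adjusted p = 0.0479), and without replicate 5 at 5.50 (adjusted p = 0.0242) and 3.05 (adjusted p = 0.0485), so neither call was kept on 1 library. The fibroblast sum was 12455 and 6371 CPM in these libraries against 243 to 2124 CPM in non-pregnant basal cells, the pericyte sum 1409 and 1277 CPM against 162 to 414 CPM and the endothelial sum 1031 and 408 CPM against 36.3 to 254 CPM. The leukocyte sum was 49.8 and 25.0 CPM against 11.6 to 24.9 CPM and the adipocyte sum 253 and 93.0 CPM against 12.6 to 105 CPM, of which *Fabp4* held 251 and 92.5 CPM at P14.5. The adipocyte sums overlapped and the other 4 did not, and the part of these cells was not tested. *Itgb8* fell to 48.7 and 50.9 CPM (-1.16 ± 0.26, adjusted p = 0.00867), with an adjusted p from 0.00693 to 0.121 without single libraries.

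In luminal cells at P3.5, *Itga8* was the 1 gene called (0.299% of all genes were higher and 0.299% lower), at 31.1 ± 15.5 CPM (SD, n = 3), where non-pregnant libraries lay at 42.4, 108 and 348 CPM (log2 difference -2.05 ± 0.45, adjusted p = 0.00842), with an adjusted p from 0.00189 to 0.221 without single libraries. *Dag1* was the 1 gene for which these libraries did not overlap (5.75% of all genes in either direction), at 0.37 ± 0.20, which was not called. At P14.5, 2 genes were higher and 3 lower (1.72% and 2.54%). The 3 that fell were the integrin subunits *Itgb3*, at 3.94, 1.87 and 3.88 CPM against 7.79, 30.3 and 68.8 CPM (-2.90 ± 0.43, adjusted p = 1e-05), *Itga8* at 30.7, 25.7 and 17.2 CPM (-2.27 ± 0.45) and *Itgav* (ENSMUSG00000027087) at 148, 116 and 129 CPM against 182, 332 and 571 CPM (-1.26 ± 0.27). All P14.5 luminal libraries were below the non-pregnant ones for these 3 genes and above them for 5 others, *Itga6*, *Lama1*, *Lamb1*, *Lamb3* and *Dag1* (12% of all genes in either direction). The *Itgav* call was lost without P14.5 replicate 3, at -1.17 (adjusted p = 0.0167), or 5, at -1.25 (adjusted p = 0.0139), and that of *Itga8* without replicate 5, at -2.05 (adjusted p = 0.0151). *Lamb3* (1.42 ± 0.35) and *Hspg2* (1.05 ± 0.27) were higher, with adjusted p values from 0.00566 to 0.0867 and from 0.00179 to 0.191 without single libraries. Without P14.5 replicate 2 they were at 1.18 (adjusted p = 0.0867) and 0.71 (adjusted p = 0.191). The endothelial sum was 439, 25.1 and 88.6 CPM in replicates 2, 3 and 5 against 7.01 to 56.4 CPM in non-pregnant luminal cells, and the adipocyte sum 104, 11.5 and 24.8 CPM against 2.59 to 18.0 CPM, both highest in replicate 2. *Fabp4* held 104, 11.3 and 24.7 CPM of that adipocyte sum. The fibroblast sum was lower without overlap, at 158, 109 and 85.2 CPM against 165 to 511 CPM. The part of these cells was not tested.

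Glands 4 weeks after weaning were set beside age-matched nulliparous glands. None of the 39 genes was called between Iw4 and M4 by limma in basal cells (0.00586% of all genes) or in luminal cells (0% of all genes). At an unadjusted p under 0.05, limma found 0 of the 39 in either population (1.89% of all genes in basal and 2.30% in luminal cells). At the same level edgeR (1.31% and 1.99%) and DESeq2 (1.45% and 2.57%) found 0 in basal cells and 1, *Nid1*, in luminal cells. All Iw4 libraries lay above all M4 libraries for 1 gene and below them for 4 in basal cells (8.67% of all genes in either direction), and for 1 and 1 in luminal cells (8.56%). *Lama2* had the largest basal difference, at 4.99, 12.9 and 38.7 CPM at Iw4 and 0.814, 9.83 and 4.72 CPM at M4, which overlapped. Over all 8 time points, with the Id2 libraries included, 30 of 39 genes varied in basal cells by limma's F test with an FDR under 0.01 (44.5% of all genes) and 18 in luminal cells (34.0%). Over the 7 time points other than Id2, 20 varied in basal cells (32%) and 14 in luminal cells (25.8%).

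Genes of the same pathways outside the 39 were counted in the same fits, and are given as log2 differences ± SE. The shares of all genes called higher and lower, against which these counts are read, were 13.6% and 7.35% in basal against luminal cells, 10.4% and 7.78% and 7.45% and 5.66% in lactation (basal and luminal) and 11.3% and 9.47% and 8.23% and 5.62% at Id2. Without Id2 the counts over the mean of time points were the same for the lists below, apart from the integrin ligands, of which 8 in place of 9 were higher. Of 20 basement membrane collagens and other basement membrane proteins, 18 were higher and 1 lower in basal cells over the mean of time points, among them *Col4a2* (5.37 ± 0.15), a type IV collagen chain, and *Sparc* (5.70 ± 0.21), a collagen-binding matricellular protein. In lactating basal cells 5 were higher and 2 lower, with *Tinagl1* at 2.14 ± 0.34 and *Fras1* at -1.85 ± 0.34. In the Id2 libraries labelled basal 7 were higher and 6 lower, with *Col15a1* at 5.79 ± 0.61 and *Col17a1*, the hemidesmosomal collagen, at -5.89 ± 0.62. In luminal cells 7 were higher and 2 lower in lactation, and 6 and 2 at Id2, with *Col17a1* at 2.74 ± 0.49 and *Sparc* at 2.56 ± 0.38 in lactation and *Col15a1* at 3.81 ± 0.61 and *Sparc* at 3.57 ± 0.47 at Id2.

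Of 24 focal adhesion proteins, 11 were higher and none lower in basal cells, with *Tgfb1i1* (6.07 ± 0.16) and the tensin *Tns1* (3.98 ± 0.22) first. In lactating basal cells 7 were higher, with *Tns1* at 3.83 ± 0.41 and *Kank2* at 2.30 ± 0.28, and 1 lower. In the Id2 libraries labelled basal 3 were higher and 4 lower, with the kinase *Src* at -2.38 ± 0.26 and *Tgfb1i1* at -1.64 ± 0.37. In luminal cells 2 were higher and 1 lower in lactation, with *Tns1* at 3.31 ± 0.39 and the adaptor *Nck2* at -1.55 ± 0.19, which is near the shares over all genes, and 3 and 1 at Id2, with *Tns1* at 2.83 ± 0.49 and *Fblim1* at 2.16 ± 0.35. Of 12 genes of the dystrophin-glycoprotein complex, which joins laminin to actin through dystroglycan, 8 were higher in basal cells and none lower, with dystrobrevin (*Dtna*) at 2.96 ± 0.22 and sarcospan (*Sspn*) at 2.63 ± 0.17. In lactating basal cells 6 were higher, with the sarcoglycans *Sgce* at 4.10 ± 0.35 and *Sgca* at 3.20 ± 0.34. In the Id2 libraries labelled basal 3 were higher and 2 lower, with *Sgce* at 4.53 ± 0.42 and *Sgcd* at 1.93 ± 0.34. In luminal cells none was called in lactation and 1, *Sgcb*, at Id2 (1.03 ± 0.29).

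Of 14 further integrin, laminin and linker genes, 3 were higher in basal cells and none lower, with *Itga11* at 2.09 ± 0.24 and *Lamc3* at 2.00 ± 0.16. In lactating basal cells 4 were higher and 1 lower, with *Itga10* at 1.79 ± 0.41, and in the Id2 libraries labelled basal 3 were higher and none lower, with *Itga11* at 2.53 ± 0.54. *Itga4*, a fibronectin and VCAM receptor subunit, was at 4.17 ± 0.36 in basal lactation and 3.88 ± 0.43 in the Id2 libraries labelled basal. In luminal cells 1, the leukocyte subunit *Itgax*, was higher in lactation (1.22 ± 0.27), again near the share over all genes, and 5 at Id2, with *Itgam*, a myeloid subunit and sort antigen (Cd11b), at 3.00 ± 0.48 and *Parvg* at 2.24 ± 0.44. The leukocyte marker sum, over the 9 of 10 markers in the table, was 65.6, 215 and 296 CPM in the Id2 luminal libraries and 24.2 to 300.1 CPM in lactation, against 9.83 to 24.6 CPM in non-pregnant luminal cells, and its part was not tested. Of 19 integrin ligands other than laminins, 9 were higher and 2 lower in basal cells, with *Postn* at 5.55 ± 0.31 and fibrillin (*Fbn1*) at 5.54 ± 0.28. In lactating basal cells 9 were higher and none lower, with vitronectin (*Vtn*) at 3.38 ± 0.35 and fibronectin (*Fn1*) at 3.04 ± 0.64, and in the Id2 libraries labelled basal 8 were higher and none lower, with tenascin C (*Tnc*) at 5.19 ± 0.51 and *Emilin1* at 4.84 ± 0.38. In luminal cells 5 ligands were higher in lactation and 7 at Id2, with *Fn1* at 2.78 ± 0.59 and 3.39 ± 0.75 and *Fbn1* at 2.41 ± 0.49 and 4.55 ± 0.62.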

How the data were processed

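Per the labels and the study's methods, the authors aligned single-end reads to the mouse genome (NCBI build 37.1) with GSNAP within the WASP system, counted them with htseq-count, removed genes that did not reach 1 CPM in 3 samples or that combined extreme counts with low variability, and scaled the counts with edgeR. The deposited table holds this normalised signal, counts divided by edgeR's effective library sizes (CPM), for 17078 genes in 46 libraries. Every value was a whole number of reads within 0.05, which gave back 4398806 to 20023054 reads on genes per library (median 8518616), and 0 columns were unused. Strand-specific counting was not given in the sources used here. The precision of a low value is limited by counting, with 3 reads as the floor (0.170 to 1.05 CPM).

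All 17078 genes were fitted in limma 3.58.1 (R 4.3.3) on log2(CPM + 1) with 16 conditions in 1 model over 46 libraries, and p-values were adjusted by Benjamini-Hochberg over all genes. Fold changes on this scale understate changes of low genes. A call needed a fold change of at least 2 and an FDR under 0.01. Alternatives were a pseudocount of 0.1, median-ratio rescaling, a mean of at least 5 CPM, the sort as a block, edgeR 4.0.16 and DESeq2 1.42.0 on the recovered reads, W10 alone as baseline, and leaving out each library. Means and F tests over time points other than Id2 and L3 alone as lactation were added after the data were seen. The scripts were tested on simulated data. Tables and plots were made in Python 3.11.15 with pandas 2.3.3, numpy 2.4.6 and matplotlib 3.10.9.

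Replicate numbers pair a basal with a luminal library of the same pooled mice. Deviations from the condition means correlated within 21 of 22 such sorts (median 0.25, range -0.004791 to 0.3859), and limma's consensus correlation was 0.1791. The 39 genes and the lists beside them were chosen with earlier results of these data known. By rule, library values are given for genes that were called, did not overlap between groups and were among the 3 largest in either direction of a comparison, and for *Itgb1*, *Ilk*, *Lims2* and *Parvb*, and of each list beside them the 2 called genes of largest difference are named. A gene of these lists is not reported here and was left out of their counts. Values of other genes were added after they were seen. *Itgb1*, the sort antigen, was left out of counts of basal against luminal. Gene symbols and exon lengths came from GENCODE M21, which matched 16897 IDs and not 181, and promoters from RefSeq (GRCm38.p6). Both are newer than the authors' build, so the promoter coordinates belong to that build and to no deposited file. Small parts of the exons of *Nid2*, *Lims2*, *Itga1*, *Plec* and *Itga7* are shared with other genes (8.446%, 6.144%, 3.683%, 1.132% and 0.1112%). P-values measure the spread between sorts of pooled mice.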

Additional observations from a re-analysis of the deposited data

Results flagged for a closer look

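A change between 2 states that differs between basal and luminal cells, by limma's test of the difference itself, was found for the genes below, at a difference of at least 1 on the log2 scale and an FDR under 0.01. Each value is the basal change minus the luminal change, so that its sign alone does not say which population changed more.

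From the non-pregnant state to lactation, the value was positive for the receptor subunits *Itgb3* (3.55), *Itga7* (3.49) and *Itga5* (2.22), for the laminin chain *Lamb2* (1.90), and for *Lims2* (2.46), *Lims1* (1.35), *Plec* (1.29), *Ilk* (1.15) and *Fermt2* (1.01). The sign for *Lims2* turned with edgeR and DESeq2, as given in the part on processing. For *Itgb3* the basal change was 0.54 and the luminal change fell by 3.00 on the log2 scale. The value was negative for *Itga9* (-1.81) and *Lamb3* (-1.57), with luminal changes of 2.14 and 2.23 and basal changes of 0.33 and 0.66.

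From the non-pregnant state to Id2, the value was negative for the laminin chains *Lamb3* (-5.46), *Lama1* (-5.03) and *Lama3* (-3.11), the integrin subunits *Itga6* (-4.19), *Itgb8* (-3.45), *Itga3* (-3.09), *Itga8* (-3.03), *Itga9* (-2.33) and *Itga2* (-2.09), and for *Fermt1* (-5.54), *Agrn* (-2.22) and *Dst* (-1.61). For *Lamb3*, *Lama1* and *Lama3* the changes in the libraries labelled basal were -5.16, -4.83 and -5.01 and the luminal ones 0.31, 0.20 and -1.90. The calls of *Itga2*, *Itga9* and *Dst* were lost when single libraries were left out, with adjusted p values from limma reaching 0.0256, 0.0142 and 0.036. The value was positive for *Lama4* (3.14) and *Itgb3* (2.66), where *Itgb3* changed by 0.11 in the libraries labelled basal and by -2.55 in luminal cells. These values rest on the 3 Id2 libraries labelled basal, in which the basal keratins *Krt5* and *Krt14* and *Trp63* were below every non-pregnant basal library. In the same libraries *Krt5*, *Acta2*, *Mylk*, *Myh11* and *Snai2* were above every Id2 luminal library, *Krt5* by a small margin in replicate 2. The other listed basal markers overlapped, with *Krt14* and *Oxtr* of replicates 2 and 6 below every Id2 luminal library. The summed basal markers of replicate 4 lay within the non-pregnant range, with *Acta2*, *Myh11* and *Mylk* as the largest parts of that sum. The part of other cells in these libraries was not tested.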

How the results depend on the processing

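Counts of called genes, and the values of the genes named, were recomputed under each alternative. The comparisons of early pregnancy moved the most. In basal cells at P3.5 the count of 2 became 1 with a pseudocount of 0.1 and 1 with edgeR, and ran from 0 to 3 when single libraries were left out. In basal cells at P14.5 the count of 3 became 0 with a pseudocount of 0.1 and ran from 0 to 3. In luminal cells at P3.5 the count of 1 became 0 with W10 alone or with edgeR and 2 with DESeq2, and ran from 0 to 1, while at P14.5 the count of 5 ran from 1 to 5. Among all genes at P3.5, limma called 102, edgeR 82 and DESeq2 252 in luminal cells, and limma called 731 and edgeR 659 in basal cells. For the other alternatives of this paragraph the shares of all genes are not given here. In basal lactation the count of 17 became 11 with W10 alone. The basal against luminal count at P14.5 ran from 13 to 19, and the luminal Id2 count from 8 to 13. The difference between cell types for *Lims2* in lactation turned from 2.46 to -0.51 with edgeR (adjusted p = 0.766) and -0.60 with DESeq2 (adjusted p = 0.703), and the cause was not tested. Over 292 results, 271 of 3727 values lost their call when single libraries were left out. Under the other alternatives 88 of 1913 lost their call with the sign kept, and 2 more, those of *Lims2*, turned in sign and were not called. With the sort as a replicate block, the difference between cell types in lactation for *Fermt2* was 1.00 and no longer called, and no other called gene in these comparisons lost its call. Rescaling moved the median of all genes by at most 0.0601. DESeq2 was not run for the joint test over time points. Amplification batches and lanes followed the time points, 2 conditions had 2 libraries, and the precision of genes near 3 reads, such as *Ilk*, was limited by counting.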
